A study of Homo sapiens with 11 samples.

Results

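Extracellular matrix proteins and the enzymes that modify and crosslink them were followed as a set of 49 genes, matched by symbol among the 37247 gene identifiers of the expression table. The set held 16 collagen chains, 7 laminin chains, 16 other glycoproteins and proteoglycans, and 10 modifying enzymes, and each of the 49 symbols matched 1 identifier. RNA was sequenced in 6 libraries labelled as MDA-MB-231, an established line of human breast cancer cells: 3 labelled H2AS40-KD, with the genotype given as a knockdown of S40-type H2A, and 3 labelled Control-KD, with the genotype given as WT. S40-type H2A is histone H2A with a serine at residue 40, the site of the sugar modification in the series title. The labels do not give the knockdown reagent, the time after it, or whether replicates were separate cultures, so the spread behind each p-value may be technical. The series has 11 samples, of which 5 are chromatin immunoprecipitation and input libraries that were not analysed here.

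The extracellular matrix is the protein scaffold that cells secrete and attach to. Collagens assemble from 3 chains into a helix, laminins join an alpha, a beta and a gamma chain and build the basement membrane, and fibronectin fibres link cells to both through integrins. Inside the cell, lysyl and prolyl hydroxylases and the chaperone HSP47 prepare collagen for secretion, and outside it lysyl oxidases and transglutaminases crosslink the fibres. Basal-like breast cancer cells of the mesenchymal kind are known for making fibronectin, thrombospondin and laminins.

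Values were in transcripts per 1000000 (TPM), which are scaled for gene length and sum to 1000000 in each library, and no read depth or counting error can be had from such values. Tests were made with limma on log2(TPM + 1) over 14160 genes that reached 1 TPM in at least 3 libraries, and a gene was called at a Benjamini-Hochberg adjusted p under 0.05 over all of them. The knockdown was not visible in the genes taken as S40-type: H2AC25 had 33.3, 34.8 and 32.6 TPM in the H2AS40-KD-labelled libraries and 32.4, 33.5 and 31.3 TPM in Control-KD. With H2AC7 added, the sum was 34.0 ± 1.03 TPM in the H2AS40-KD-labelled libraries and 33.4 ± 0.911 TPM in Control-KD (SD, n = 3 each), which gave p = 0.50 in an exact permutation test (two-sided, smallest possible p 0.10). The choice of these genes rests on recollected protein sequences and was not checked against any sequence. The groups are therefore called by their labels. Control-KD replicate 3 stood apart on a first principal component holding 29.6% of the variance, at -31.2 with every other library from -0.784 to 12.

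The libraries did not match the labelled cell line alone. Mesenchymal markers of MDA-MB-231 were high, with VIM at 2269.6 ± 10.1 TPM in the H2AS40-KD-labelled libraries and 2258 ± 16.8 TPM in Control-KD (SD, n = 3 each). Luminal epithelial markers were high as well, and 10 of 10 were above 10 TPM in all 6 libraries. Only some of these 10, such as GATA3 and ESR1, are genes that this line is known to lack or to express weakly. GATA3, a luminal transcription factor, had 448, 436 and 459 TPM in the H2AS40-KD-labelled libraries and 469, 471 and 460.4 TPM in Control-KD. KRT19, a luminal keratin, had 861 ± 7.84 TPM in the H2AS40-KD-labelled libraries and 811 ± 47.8 TPM in Control-KD, and ESR1, the oestrogen receptor, had 19.5 ± 2.69 TPM in the H2AS40-KD-labelled libraries and 14.9 ± 4.01 TPM in Control-KD (SD, n = 3 each). Bulk values cannot tell whether the same cells held both sets of messages, and fewer cells of a kind cannot be told apart from less RNA per cell. The summed luminal markers ran from 7506 to 7547 TPM in the H2AS40-KD-labelled libraries and from 7501 to 7604 TPM in Control-KD. Most of this sum was KRT8 and KRT18, so it says little about the lower markers. KRT8 averaged 3549 TPM in the H2AS40-KD-labelled libraries and 3587 TPM in Control-KD. KRT18 averaged 2248 TPM in the H2AS40-KD-labelled libraries and 2281 TPM in Control-KD. The summed level of 8 mesenchymal markers, most of it VIM, ran from 3294 to 3325 TPM in the H2AS40-KD-labelled libraries and from 3483 to 3509 TPM in Control-KD. Of these 8, CAV1 and S100A4 fell, 6 were lower at an unadjusted p under 0.05 and 6 were lower with no overlap. Of the 10 luminal markers, 0 were called by limma, where 1.26% of all tested genes were called in either direction. Of the same 10, 0 had an unadjusted p under 0.05. With no overlap, 1 luminal marker was lower (GATA3) and 2 were higher (EPCAM and KRT19). Of all 14160 tested genes, 2337 had an unadjusted p under 0.05 in either direction. Of the same genes, 11.3% did not overlap downward and 12.9% upward. The part that the difference in mesenchymal markers has in the matrix results was not tested. Markers of stromal fibroblasts were near 0, with 8 of 10 under 1 TPM in every library, a summed level of 6.12 to 7.04 TPM in the H2AS40-KD-labelled libraries and of 6.40 to 8.63 TPM in Control-KD, and DPT at 0 in all 6. Of 7 endothelial markers 5 were under 1 TPM in every library. Of 10 blood cell markers 5 were, PTPRC among them. The summed blood cell markers were 50.3 to 61.1 TPM in the H2AS40-KD-labelled libraries and 67.7 to 77.8 TPM in Control-KD, most of it CD68, a lysosomal protein (adjusted p = 0.0652 by limma).

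**Figure D1:**
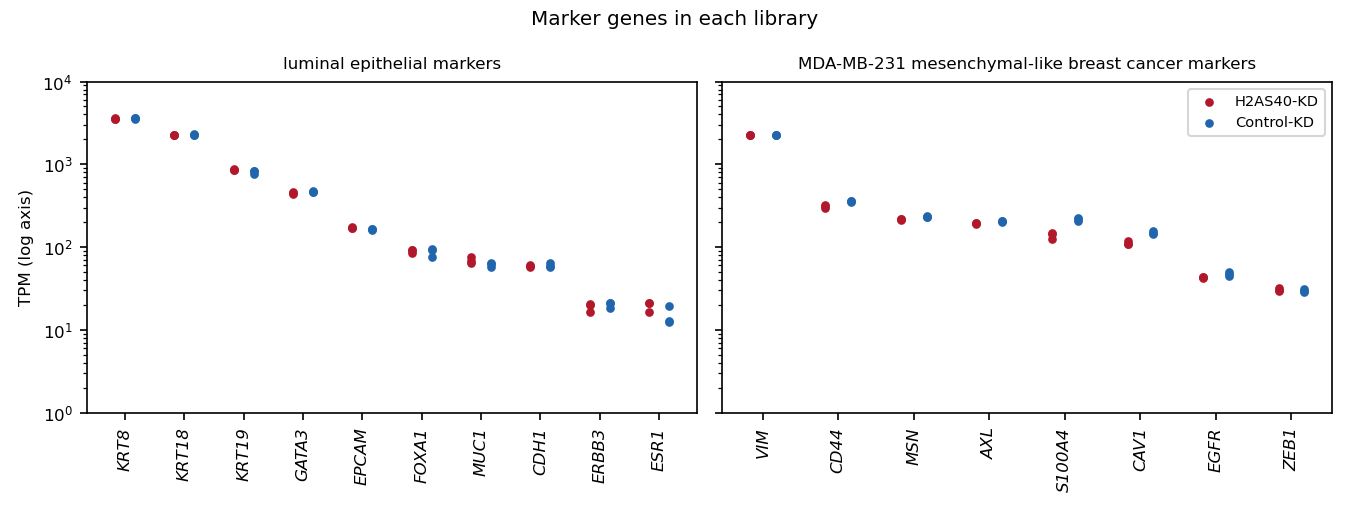
TPM on a log axis for luminal epithelial markers and for mesenchymal-like markers of MDA-MB-231, with 1 point per library, H2AS40-KD in red and Control-KD in blue. Both kinds of marker are above 10 TPM in all 6 libraries, and S100A4 and CAV1 are lower in H2AS40-KD.

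Matrix genes were mostly lower in the H2AS40-KD-labelled libraries. Of 41 tested members, 6 fell and 0 rose: the glycoproteins FN1, EDIL3 and CEMIP, the laminin chain LAMB3, and the enzymes PLOD1 and TGM2. That was 14.6% of tested members called lower, where 1.26% of all tested genes were called, 0.742% lower and 0.516% higher. At an unadjusted p under 0.05, 17 members were lower and 1 was higher, where 2337 of all 14160 tested genes were under 0.05 in either direction. The median log2 fold change was -0.25, against 0.01 over all tested genes, and 33 of them (80.5%) were negative, against 46.9% of all tested genes. The groups did not overlap in 20 members that were lower and 2 that were higher, where 11.3% of all tested genes did not overlap downward and 12.9% upward. Each of the 41 reached 1 TPM in at least 1 library of both groups. FN1, EDIL3 and LAMB3 were known to be lower when the set was drawn up, so their calls are not independent support for it. The other members were also chosen with earlier results of these data known. The shares set against all tested genes are therefore descriptive and got no list test.

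By library, the median of the tested members relative to the Control-KD mean was -0.25, -0.22 and -0.20 on the log2 scale in the H2AS40-KD-labelled libraries, against 0.05, 0.00 and -0.05 in Control-KD. The same medians over all tested genes were 0.01, 0.02 and 0.01 in the H2AS40-KD-labelled libraries. The summed TPM of the 49 genes was 964, 982 and 979.6 in the H2AS40-KD-labelled libraries and 1183, 1136 and 1110.2 in Control-KD. The sums did not overlap, and their means differed by -14.7%.

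The single calls depended on which libraries entered. Without Control-KD replicate 3, 4 members were called lower: FN1, PLOD1, TGM2 and the collagen COL13A1. Without H2AS40-KD replicate 3, FN1 was the 1 call left. Without any 1 of the other 4 libraries 0 members were called by limma. In those 4 fits 12 to 17 members were still lower at an unadjusted p under 0.05. Of the 14160 tested genes, 1805 to 2087 were under 0.05 in either direction in the same fits. The median of the tested members stayed between -0.27 and -0.22 in these 6 fits.

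**Figure D2:**
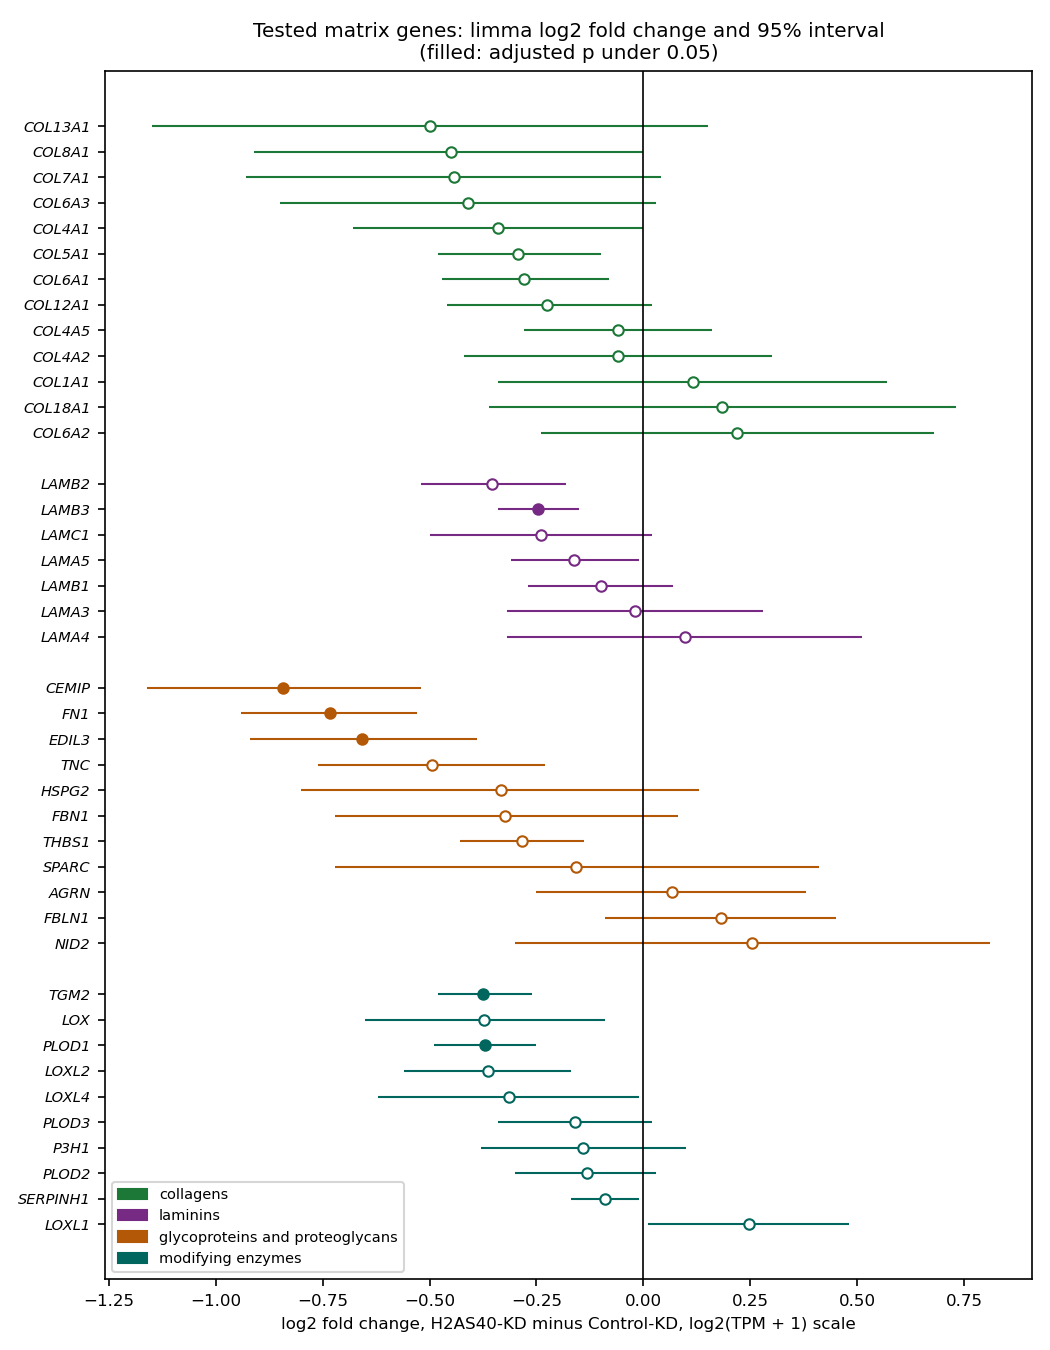
Limma log2 fold changes of the 41 tested genes, H2AS40-KD minus Control-KD on the log2(TPM + 1) scale, with 95% intervals and grouped by class. Filled points are the 6 called genes, all on the negative side; 33 of the 41 points lie below 0.

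Glycoproteins and proteoglycans held the largest falls. FN1 encodes fibronectin, the fibre-forming ligand of integrins, on chromosome 2 of GRCh38 from 215360865 to 215436068. It had 16.7, 18.1 and 20.1 TPM in the H2AS40-KD-labelled libraries and 29.2, 33.7 and 30.4 TPM in Control-KD. The groups did not overlap, and the log2 fold change was -0.73 ± 0.09 (SE, limma adjusted p = 0.0182). EDIL3, a secreted integrin ligand with EGF and discoidin domains, lies on chromosome 5 from 83940554 to 84384880. It had 7.32, 6.01 and 5.76 TPM in the H2AS40-KD-labelled libraries and 10.9, 11.1 and 9.74 TPM in Control-KD. Its log2 fold change of -0.66 ± 0.11 (SE) was just inside the threshold, with a limma adjusted p of 0.0496, again with no overlap. CEMIP, which binds hyaluronan and takes part in its breakdown, lies on chromosome 15 from 80779370 to 80951771. It was a low gene, at 1.83, 2.0 and 1.60 TPM in the H2AS40-KD-labelled libraries and 3.68, 3.95 and 4.50 TPM in Control-KD. It had the most negative log2 fold change of the set, -0.84 ± 0.14 (SE, limma adjusted p = 0.0423), and its mean TPM fell by 55.2%. On the same scale FN1 fell by 41.1% and EDIL3 fell by 39.9%.

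**Figure D3:**
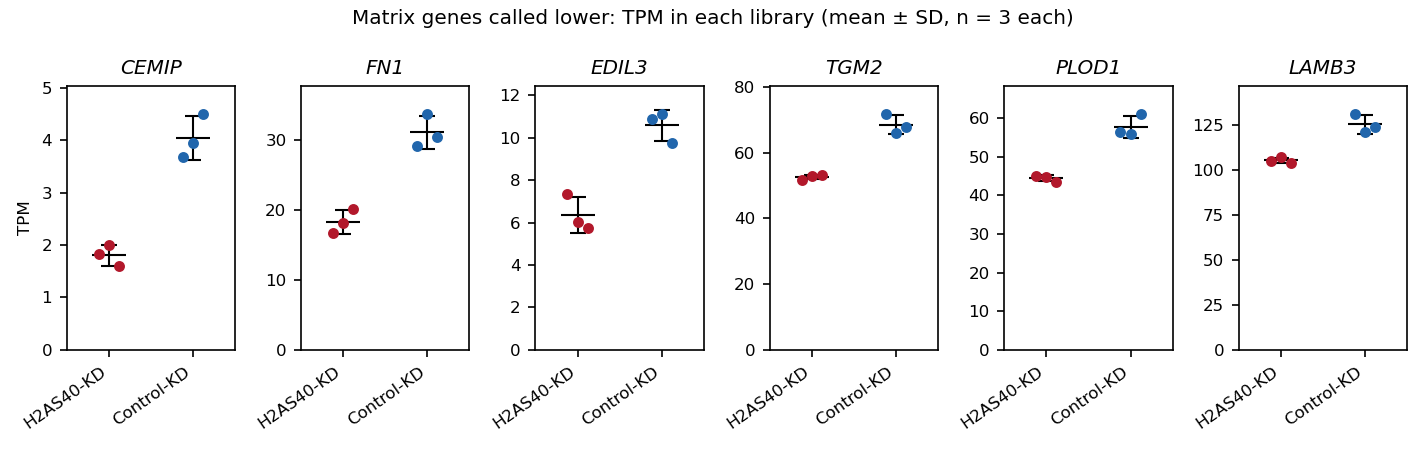
TPM of the 6 called genes in each library on linear axes from 0, H2AS40-KD left and Control-KD right, with the mean and SD of 3 libraries. In each panel the 3 H2AS40-KD points lie below the 3 Control-KD points; relative to the Control-KD mean the difference is widest for CEMIP, FN1 and EDIL3.

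The promoters of these 3 genes are shown because they had the largest falls, as the 250 bases before the start of each gene (RefSeq, GRCh38.p14), written 5′ to 3′ on the strand of the gene. FN1 is at chr2:215436069-215436318 (minus strand), EDIL3 at chr5:84384881-84385130 (minus strand) and CEMIP at chr15:80779120-80779369 (plus strand). Capitals mark matches, on either strand, to any of 5 motifs. These were the cyclic AMP response element (TGACGTCA), the AP-1 element (TGANTCA), the GC box that Sp1-type factors bind (GGGCGG), the CCAAT box of that spelling, and the TATA box of core promoters (TATAAA).
FN1: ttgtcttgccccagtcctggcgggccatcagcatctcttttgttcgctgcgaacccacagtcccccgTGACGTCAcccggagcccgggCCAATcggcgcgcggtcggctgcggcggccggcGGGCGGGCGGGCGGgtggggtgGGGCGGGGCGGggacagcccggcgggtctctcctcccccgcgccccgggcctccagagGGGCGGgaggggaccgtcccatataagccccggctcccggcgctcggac
EDIL3: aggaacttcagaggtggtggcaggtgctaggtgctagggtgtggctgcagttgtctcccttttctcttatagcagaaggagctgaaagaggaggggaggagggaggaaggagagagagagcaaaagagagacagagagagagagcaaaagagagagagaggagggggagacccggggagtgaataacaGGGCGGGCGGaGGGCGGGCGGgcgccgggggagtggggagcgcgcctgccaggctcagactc
CEMIP: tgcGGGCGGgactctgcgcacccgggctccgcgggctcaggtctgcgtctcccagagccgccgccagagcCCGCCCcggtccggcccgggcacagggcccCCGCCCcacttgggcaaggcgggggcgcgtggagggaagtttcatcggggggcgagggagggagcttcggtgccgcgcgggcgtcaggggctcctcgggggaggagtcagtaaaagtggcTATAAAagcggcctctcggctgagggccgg
FN1 held the cyclic AMP response element 183 bases before its start and a CCAAT box 162 bases before it, and CEMIP held a TATA box 30 bases before its start. Adjacent GC box matches overlap one another in FN1 and EDIL3. Of 27305 RefSeq promoters of this length, 1.77% held the response element, 6.60% the AP-1 element, 42.3% a GC box, 33.0% a CCAAT box and 11.1% a TATA box. Of the 5 called members with a promoter in the table, which also include LAMB3 and PLOD1, 5 held a GC box, as did 77.5% of the 40 members with one and 68.0% of the promoters of tested genes. The response element was in 1 of the 40, that of FN1. A match describes these letters and is not a site.

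The remaining glycoproteins were not called. THBS1, thrombospondin 1, a matricellular protein that binds many matrix partners, was the most abundant, with 69.2, 77.2 and 73.9 TPM in the H2AS40-KD-labelled libraries and 95.7, 84.9 and 88.5 TPM in Control-KD. The groups did not overlap (log2 fold change -0.28 ± 0.06, SE, limma adjusted p = 0.0927). TNC, tenascin C, an adhesion-modulating glycoprotein, had 6.13 ± 0.404 TPM in the H2AS40-KD-labelled libraries and 9.08 ± 1.09 TPM in Control-KD, also with no overlap (SD, n = 3 each, limma adjusted p = 0.101). AGRN, agrin, a heparan sulfate proteoglycan of basement membranes, was the second in abundance and differed little, with 46.7 ± 5.65 TPM in the H2AS40-KD-labelled libraries and 44.7 ± 7.21 TPM in Control-KD (SD, n = 3 each). Its log2 fold change was 0.07, with a 95% interval from -0.25 to 0.38, and was -0.07 without Control-KD replicate 3. HSPG2, perlecan, another heparan sulfate proteoglycan, averaged 2.57 TPM in the H2AS40-KD-labelled libraries and 3.55 TPM in Control-KD. FBN1, the microfibril protein fibrillin 1, averaged 4.33 TPM in the H2AS40-KD-labelled libraries and 5.69 TPM in Control-KD. The groups overlapped for both genes. FBLN1, fibulin 1, had 4.36, 3.76 and 3.89 TPM in the H2AS40-KD-labelled libraries and 3.58, 3.41 and 3.24 TPM in Control-KD, so that it was higher with no overlap but was not called (limma adjusted p = 0.494). NID2, a nidogen that bridges laminin and collagen IV, averaged 2.57 TPM in the H2AS40-KD-labelled libraries and 2.02 TPM in Control-KD, and its sister gene NID1 was at most 0.0377 TPM in any library. SPARC, a collagen-binding matricellular protein, averaged 1.34 TPM in the H2AS40-KD-labelled libraries and 1.65 TPM in Control-KD, with overlap. Of the 16 genes in this class 11 were tested, with 3 falls and 0 rises, where 0.742% of all tested genes were called lower. Of the 3, FN1 and EDIL3 were known to be lower when the set was drawn up. The median log2 fold change of the 11 was -0.32. The summed level of the 16 was 169 ± 9.19 TPM in the H2AS40-KD-labelled libraries and 207 ± 9.42 TPM in Control-KD (SD, n = 3 each).

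Laminin chains were led by LAMB3, the beta chain of laminin-332, an anchor of epithelial cells, on chromosome 1 from 209614870 to 209652425. It had 105, 107 and 104 TPM in the H2AS40-KD-labelled libraries and 131, 121 and 124 TPM in Control-KD. It fell with no overlap, by a small amount (log2 fold change -0.25 ± 0.04, SE, limma adjusted p = 0.0459). Its partner alpha chain LAMA3 had a lower level, with 7.77 ± 0.923 TPM in the H2AS40-KD-labelled libraries and 7.90 ± 1.06 TPM in Control-KD (SD, n = 3 each). LAMB3 was thus 11.9 to 15.1 times as high as LAMA3 in the H2AS40-KD-labelled libraries and 13.7 to 18.8 times in Control-KD, with overlap between the groups.

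LAMB2, a beta chain of basement membranes, had 41.4, 39.3 and 47.3 TPM in the H2AS40-KD-labelled libraries and 54.3, 55.1 and 54.6 TPM in Control-KD. It had the most negative log2 fold change of the laminins, with no overlap, yet it was not called (-0.35 ± 0.07, SE, limma adjusted p = 0.0772). LAMA5 and LAMC1, chains of laminin-511 and laminin-521, also did not overlap and were not called. LAMA5 averaged 35.3 TPM in the H2AS40-KD-labelled libraries and 39.7 TPM in Control-KD, and LAMC1 averaged 33.1 TPM in the H2AS40-KD-labelled libraries and 39.2 TPM in Control-KD. LAMB1 averaged 19.1 TPM in the H2AS40-KD-labelled libraries and 20.5 TPM in Control-KD, with overlap, and LAMA4 stood close to 1 TPM in both groups. In all, 1 of 7 laminin chains fell and 0 rose, where 0.742% of all tested genes were called lower. That call, LAMB3, was known to be lower when the set was drawn up. The median log2 fold change of the 7 was -0.16. Without Control-KD replicate 1 that median was -0.12.

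Collagen chains were low, and limma called 0 of the 13 tested. At an unadjusted p under 0.05, 3 of the 13 were lower and 0 higher, where 2337 of all 14160 tested genes were under 0.05 in either direction. The median log2 fold change of the 13 collagen chains was -0.28. COL13A1, a transmembrane collagen, was the most abundant, with 17.9, 13.4 and 15.5 TPM in the H2AS40-KD-labelled libraries and 29.8, 27.1 and 13.6 TPM in Control-KD. Control-KD replicate 3 lay within the range of the H2AS40-KD-labelled libraries, and the other Control-KD replicates lay above it. With it the log2 fold change was -0.50 ± 0.27 (SE, limma adjusted p = 0.421), and without it -0.84 ± 0.12 (SE, limma adjusted p = 0.0404). Leaving out Control-KD replicate 1 gave -0.30 (limma adjusted p = 0.651), and leaving out replicate 2 of that group gave -0.36 (limma adjusted p = 0.61). COL18A1, the collagen that releases endostatin, was also low in Control-KD replicate 3, with 13.8, 14.9 and 13.5 TPM in the H2AS40-KD-labelled libraries and 15.2, 15.2 and 7.86 TPM in Control-KD. Its log2 fold change was 0.18 with replicate 3 and -0.11 without it, and neither was called. COL8A1, a short-chain collagen, had 9.43, 14.5 and 15.6 TPM in the H2AS40-KD-labelled libraries and 18.1, 15.3 and 21.0 TPM in Control-KD, with overlap (limma adjusted p = 0.307).

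Chains of one collagen type did not have matching levels. COL1A1, the main chain of collagen I, averaged 7.16 TPM in the H2AS40-KD-labelled libraries and 6.48 TPM in Control-KD, whereas its partner COL1A2 was under 1 TPM in all 6 libraries, as were COL3A1 and COL5A2. COL5A1, which pairs with COL5A2 in collagen V, had 8.51, 8.91 and 8.90 TPM in the H2AS40-KD-labelled libraries and 10.9, 11.5 and 10.5 TPM in Control-KD. The groups did not overlap (limma adjusted p = 0.147). COL4A1 and COL4A2, the main basement membrane collagens, start 127 bases apart on chromosome 13 and are transcribed in opposite directions. COL4A1 averaged 3.59 TPM in the H2AS40-KD-labelled libraries and 4.84 TPM in Control-KD, with no overlap (limma adjusted p = 0.30). COL4A2 averaged 10.4 TPM in the H2AS40-KD-labelled libraries and 10.9 TPM in Control-KD, with overlap, and its log2 fold change of -0.06 was -0.19 when Control-KD replicate 3 was left out and 0.03 when Control-KD replicate 2 was. Their ratio was 0.404, 0.262 and 0.397 in the H2AS40-KD-labelled libraries and 0.404, 0.333 and 0.656 in Control-KD, so that the groups overlapped. In collagen VI, COL6A1 averaged 10.8 TPM in the H2AS40-KD-labelled libraries and 13.3 TPM in Control-KD, with no overlap (limma adjusted p = 0.174). COL6A3 averaged 0.731 TPM in the H2AS40-KD-labelled libraries and 1.29 TPM in Control-KD, also with no overlap. COL6A2 had the other sign, at 4.32 TPM on average in the H2AS40-KD-labelled libraries and 3.66 TPM in Control-KD. The COL6A2 difference came to 0.00 without Control-KD replicate 3. COL12A1 was lower with no overlap and COL7A1 and COL4A5 overlapped, none of them called.

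**Figure D4:**
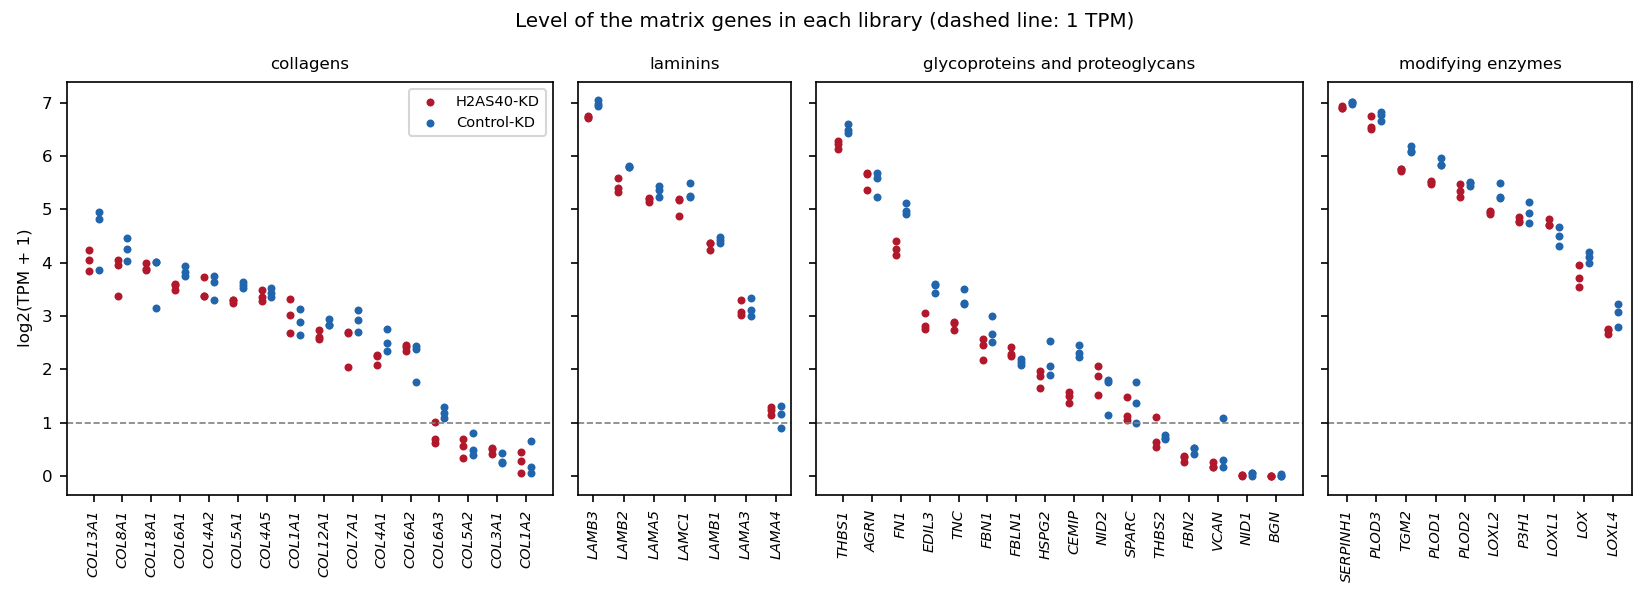
Level of all 49 genes in each library as log2(TPM + 1), by class and ordered by mean, H2AS40-KD in red and Control-KD in blue. The dashed line is 1 TPM. SERPINH1, LAMB3 and PLOD3 stand highest, and 6 genes lie under the line in every library.

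Enzymes that modify or crosslink matrix proteins were the most abundant class, at 453 ± 6.61 TPM in sum in the H2AS40-KD-labelled libraries and 518 ± 14.9 TPM in Control-KD (SD, n = 3 each). Of 10 tested, 2 fell and 0 rose, where 0.742% of all tested genes were called lower. The median log2 fold change of the 10 was -0.24. TGM2, tissue transglutaminase, which joins glutamine to lysine side chains of fibronectin and other proteins, lies on chromosome 20 from 38127385 to 38168475. It had 51.8, 52.8 and 53.2 TPM in the H2AS40-KD-labelled libraries and 71.7, 66.1 and 67.7 TPM in Control-KD. The mean fell by 23.2%, with no overlap (log2 fold change -0.37 ± 0.05, SE, limma adjusted p = 0.0204). PLOD1, a lysyl hydroxylase of collagen, lies on chromosome 1 from 11934717 to 11975537. It had 45.0, 44.7 and 43.5 TPM in the H2AS40-KD-labelled libraries and 56.3, 55.9 and 61.0 TPM in Control-KD, again with no overlap (log2 fold change -0.37 ± 0.05, SE, limma adjusted p = 0.0262).

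The other lysyl hydroxylases were not called. PLOD2, which makes the telopeptide hydroxylysines used in stable crosslinks, had 43.7, 39.4 and 36.7 TPM in the H2AS40-KD-labelled libraries and 44.3, 42.6 and 44.5 TPM in Control-KD. PLOD3, which also adds sugars to hydroxylysine, averaged 95.9 TPM in the H2AS40-KD-labelled libraries and 107 TPM in Control-KD, and both genes had groups that overlapped. SERPINH1, the collagen chaperone HSP47, was the most abundant gene of the set. It had 118, 119 and 121 TPM in the H2AS40-KD-labelled libraries and 128, 125 and 128 TPM in Control-KD, a small difference with no overlap (log2 fold change -0.09 ± 0.03, SE, limma adjusted p = 0.262). P3H1, a prolyl 3-hydroxylase, averaged 26.9 TPM in the H2AS40-KD-labelled libraries and 29.9 TPM in Control-KD, with overlap.

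The 4 lysyl oxidases of the set, which crosslink collagen and elastin, were split in direction with 0 of 4 called by limma. All 4 had an unadjusted p under 0.05, where 2337 of all 14160 tested genes did in either direction. LOX had 14.5, 10.6 and 12.1 TPM in the H2AS40-KD-labelled libraries and 17.4, 15.0 and 16.3 TPM in Control-KD (log2 fold change -0.37 ± 0.12, SE, limma adjusted p = 0.204). LOXL2 had 30.2, 29.2 and 30.0 TPM in the H2AS40-KD-labelled libraries and 36.6, 43.8 and 35.9 TPM in Control-KD (limma adjusted p = 0.102). LOXL4 averaged 5.59 TPM in the H2AS40-KD-labelled libraries and 7.26 TPM in Control-KD (limma adjusted p = 0.297). LOXL1 had 27.2, 25 and 25.1 TPM in the H2AS40-KD-labelled libraries and 24.4, 21.7 and 18.8 TPM in Control-KD, the 1 member at an unadjusted p under 0.05 that was higher (limma adjusted p = 0.28). Its log2 fold change of 0.25 was 0.15 without Control-KD replicate 3, and in 5 of the 6 fits that left out 1 library no member was higher at an unadjusted p under 0.05. All 4 had groups that did not overlap, where 11.3% of all tested genes did not overlap downward and 12.9% upward. LOXL3, a lysyl oxidase outside the set, averaged 4.76 TPM in the H2AS40-KD-labelled libraries and 5.45 TPM in Control-KD, with overlap.

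**Figure D5:**
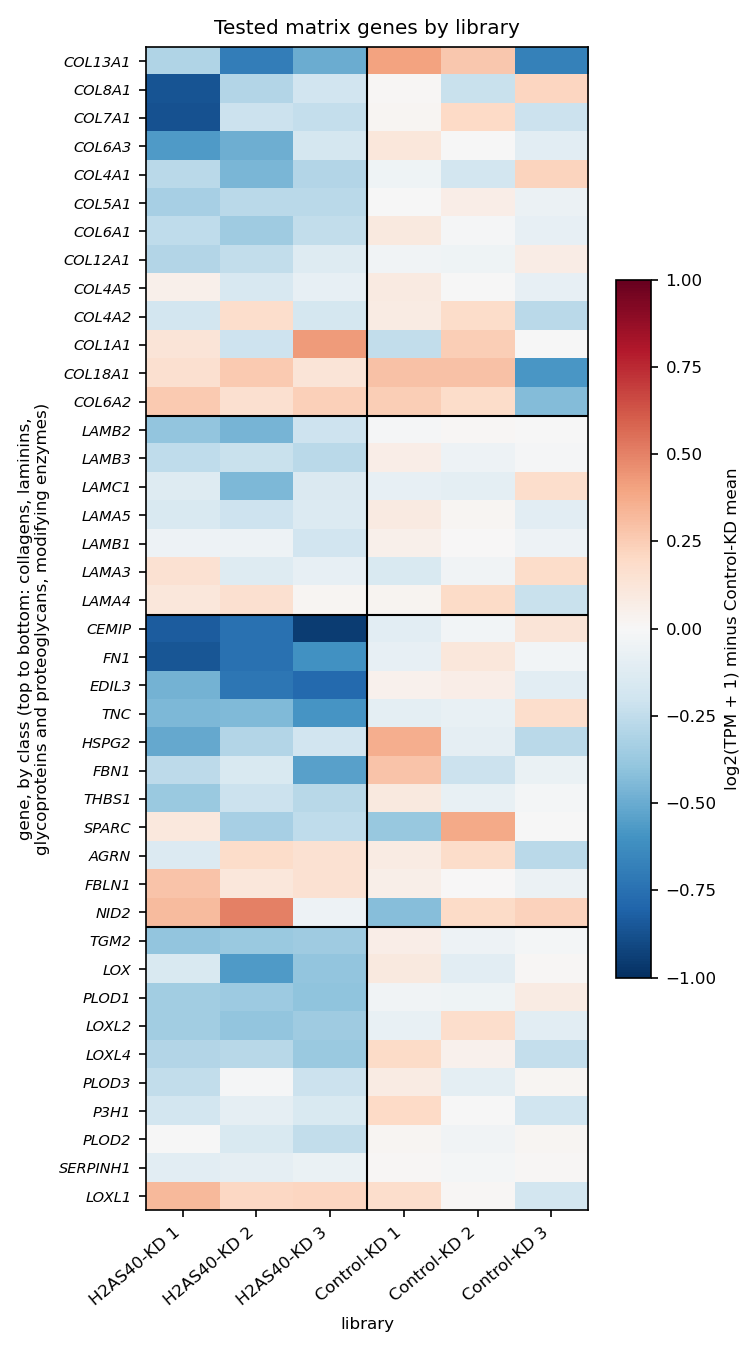
Difference of log2(TPM + 1) from the Control-KD mean for the 41 tested genes (rows, by class) in each library (columns, H2AS40-KD left of Control-KD). FN1, EDIL3 and CEMIP are blue in the 3 H2AS40-KD columns; Control-KD replicate 3 is blue for COL13A1 and COL18A1.

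Of the 49 genes, 8 did not pass the filter on low values and were not tested. COL1A2, COL3A1, COL5A2, FBN2, NID1 and BGN were under 1 TPM in all 6 libraries, with BGN, the proteoglycan biglycan, listed at 0 in 5 of them. THBS2 reached 1 TPM in H2AS40-KD replicate 1, at 1.16 TPM, and VCAN, the proteoglycan versican, in Control-KD replicate 1, at 1.13 TPM.

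Tested members had long genes, with a median span of 79.4 kb against 29.7 kb over 13100 tested genes whose span is known. With a trend of fold change on span removed, 6 members were called lower and the median over the 41 was -0.25.

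Genes of the matrix outside the set held called falls and no called rises, where 0.742% of all tested genes were called lower. These lists were also chosen with earlier results of these data known, so their shares are descriptive. Of 26 genes for collagen processing and secretion, 20 were tested, 2 fell (10.0%) and 0 rose, with a median log2 fold change of -0.10. P4HA1, the catalytic subunit of prolyl 4-hydroxylase, had 18.9, 18.6 and 19.0 TPM in the H2AS40-KD-labelled libraries and 25.6, 27.4 and 25.6 TPM in Control-KD (limma adjusted p = 0.0227). CRTAP, which forms a complex with P3H1 and cyclophilin B, had 99.7, 94.8 and 99.7 TPM in the H2AS40-KD-labelled libraries and 122, 119 and 119 TPM in Control-KD (limma adjusted p = 0.0231). Of 57 other matrix genes, 37 were tested, 4 fell (10.8%) and 0 rose, with a median of -0.08. Of these 37, 21 had a negative and 16 a positive log2 fold change. With no overlap, 11 (29.7%) were lower and 3 were higher, LAMA2 among the 3. Of all tested genes, 11.3% did not overlap downward and 12.9% upward. IGFBP7, a secreted binding protein of insulin-like growth factors, averaged 76.8 ± 1.74 TPM in the H2AS40-KD-labelled libraries and 115 ± 8.86 TPM in Control-KD (SD, n = 3 each, limma adjusted p = 0.0129). SRGN, the proteoglycan serglycin, averaged 57.6 ± 1.68 TPM in the H2AS40-KD-labelled libraries and 78.4 ± 2.52 TPM in Control-KD (SD, n = 3 each, limma adjusted p = 0.0129). TINAGL1, a basement membrane glycoprotein, averaged 20.1 TPM in the H2AS40-KD-labelled libraries and 27.9 TPM in Control-KD (limma adjusted p = 0.0434). CCN2, a matricellular protein, averaged 81.4 TPM in the H2AS40-KD-labelled libraries and 100.4 TPM in Control-KD (limma adjusted p = 0.040). Its relative CCN1 averaged 226 ± 5.03 TPM in the H2AS40-KD-labelled libraries and 222 ± 2.30 TPM in Control-KD (SD, n = 3 each) and was not called. Uncalled genes with the other sign included MFAP5, a microfibril protein, with 63.1, 66.2 and 63.3 TPM in the H2AS40-KD-labelled libraries and 47.5, 47.8 and 55.3 TPM in Control-KD (limma adjusted p = 0.0669). PCOLCE, an enhancer of procollagen processing, had a log2 fold change of 0.50 (limma adjusted p = 0.136). LAMA2, a laminin alpha chain at a low level, had one of 0.89 (limma adjusted p = 0.208). LAMA2 had 1.06, 2.97 and 2.53 TPM in the H2AS40-KD-labelled libraries and 0.735, 0.329 and 0.947 TPM in Control-KD. It thus passed the filter only through the group where it was higher, and its value is not support for a rise. These 3 were chosen after their values were seen.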

How the data were processed

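The authors deposited gene-level TPM values. The program that turned reads into TPM was not given in the sources used here. Names without roles or versions stand in the submitters' processing notes: hg38, Bowtie2 and MACS2. The labels' protocols name a total RNA kit and an RNA library kit, without strand or messenger RNA selection. TPM keep no depth, and an estimate that failed could also read 0. Unversioned identifiers were matched to symbols for 34436 of 37247 genes. The 14160 genes that reached 1 TPM in 3 or more libraries were analysed as log2(TPM + 1), a scale that understates changes of low genes, with limma 3.58.1 in R 4.3.3 (eBayes with an intensity trend), two-sided, H2AS40-KD minus Control-KD, and p-values were adjusted by Benjamini-Hochberg over every gene tested. The step was tested on simulated data. The S40-type sum was compared by an exact permutation test. Coordinates, spans and promoters are from RefSeq tables of GRCh38.p14, matched by symbol, with 40 of 49 members having a promoter. No protein table was used. Members, classes and lists were chosen with earlier results of these data known, so they got no list test.

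By rule, values per library are given for called members, the most abundant member of each class and the 2 members per class with the largest absolute change at a mean of 5 TPM or more. Those of FBLN1, COL18A1, COL5A1, PLOD2, LOXL1 and LOXL2 are given outside this rule. Of other lists, called genes are named, and some uncalled genes as well, CCN1, LOXL3 and MFAP5 among them. Other members were named to account for the set, after their values were seen. No pair of libraries was a duplicate, since identical TPM occurred in at most 0.113% of tested genes. Alternatives covered pseudocounts, filters, scaling, the intensity trend, the replicate number as a term, gene span, and leaving out each library.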

Additional observations from a re-analysis of the deposited data

How the results depend on the processing

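All 6 members stayed called with pseudocounts of 0.1 and 0.5, quantile normalization, median-of-ratios scaling, removal of the mitochondrially encoded genes, and the gene-span trend removed; 5 were called with a filter at 5 TPM, which leaves CEMIP untested. With no filter 3 members (FN1, PLOD1 and TGM2) and 98 genes in all were called, against 178 in the reported fit. Without an intensity trend 0 members and 10 genes in all were called by limma, with 17 members lower and 2174 genes in all at an unadjusted p under 0.05. With the replicate block 0 members and 0 genes were called by limma, with 16 members lower and 2032 genes in all at an unadjusted p under 0.05. Replicate numbers did not pair the libraries: deviations of same-numbered libraries correlated at -0.0101, -0.0642 and -0.00154, and no H2AS40-KD library correlated best with its own number. Leaving out 1 library gave 0 to 4 member calls and 5 to 156 calls in all; 0 members were called higher under any alternative. The cause of these losses was not tested, although fewer libraries also give less power. Called members kept their sign under every alternative that tested them. Sign changes occurred in uncalled members with small differences: COL1A1, COL4A2, COL18A1, LAMA3, LAMA4, SPARC and AGRN when 1 library was left out, and LAMA3 also with the gene-span trend removed. Class medians stayed negative under all of them, the glycoprotein median running from -0.50 with a filter at 5 TPM to -0.23 with no filter; the collagen median was -0.14 with no filter. The S40-type sum kept its sign under all 8 alternatives. The 6 libraries of unknown depth limit what could be detected for members near 1 TPM.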
